A study of Oryctolagus cuniculus with 12 samples.

Results

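Ion channels and calcium pumps set how much calcium the smooth muscle of an artery holds, and thereby how strongly it contracts. The genes described here are those whose symbol begins with the stem of a potassium, voltage-gated calcium, ryanodine receptor, inositol trisphosphate receptor, TRPC, TRPM or TRPV, sodium, chloride, CLIC or anoctamin channel gene, of an ATP2A or ATP2B calcium pump gene, or of ORAI and STIM. Membership follows from the symbol alone, although the choice of these stems was made with earlier results of these data known. The array carried 281 probes for 129 such genes, of 43623 probes and 10231 named genes in all. A probe was tested if some group had it well above background on every one of its 3 arrays. This held for 147 probes and 70 genes, beside 26434 probes and 7354 genes over the whole array. The symbol rule also took in KCNRG, KCNIP2 and TRPC4AP, which are regulators or partners of channels and not channels themselves.

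The tested genes were 5 of 5 calcium release channels, 3 of 5 calcium pumps, 9 of 16 voltage-gated calcium channel subunits, 21 of 47 potassium channel pore subunits, 8 of 13 potassium channel accessory subunits and regulators, 9 of 15 TRP genes, 5 of 10 sodium channel subunits and 10 of 16 chloride channel and CLIC genes. Of these 70 genes, 45 were well above background on all 12 arrays. Both genes of store-operated calcium entry that had a probe were left out: STIM1 was above background on at most 2 of 3 arrays of any group, and STIM2 on none. No probe was named for ORAI1, ORAI2 or ORAI3.

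The RNA came from rabbit basilar arteries, the vessel on the front of the brain stem, and was hybridised to 12 single-colour arrays. There were 4 groups of 3 arrays: controls, which the design text names day 0, and samples of 3, 5 and 7 days after a subarachnoid hemorrhage (SAH), a bleed into the space around the brain and its arteries. The labels give no strain, age or sex, do not say how the bleed was made or whether the controls had sham surgery, and do not state whether each sample was its own animal. A p-value here therefore reflects only how far these samples scatter, and that scatter may be technical.

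Of a list of genes of contractile smooth muscle, the main cell of the arterial wall, 15 had a probe, and all 15 were tested. The 75th percentile of the signal was 127 to 191 units over the 12 arrays, no spot was saturated, and the number of arrays limits the precision. Control replicate 2 stood apart: 50.1% of its spots were flagged well above background (58.2% to 64.0% elsewhere), and 169 of its spots had an outlier flag (1 to 16 elsewhere). Each replicate number is 1 slide with 1 array of every group, at the same position on all 3 slides, so that position and group cannot be told apart. Levels are given as the log2 ratio of a signal to its array's 75th percentile. Differences are log2 differences from the controls, with a standard error (SE) and a Benjamini-Hochberg adjusted p over all tested probes. A gene was called at an adjusted p below 0.05.

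In arterial smooth muscle, membrane depolarisation opens L-type calcium channels, and the calcium that enters drives contraction. Ryanodine receptors (RYR genes) and inositol trisphosphate receptors (ITPR genes) release further calcium from the sarcoplasmic reticulum, the internal store, which the SERCA pumps (ATP2A genes) refill. Potassium channels oppose contraction by holding the membrane negative. Short local releases through ryanodine receptors, called calcium sparks, open the large-conductance potassium channel made of KCNMA1 and KCNMB1, and so ryanodine receptors can also favour relaxation.

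The array reads each gene through probes of 60 bases, and how far probes of a gene are independent depends on their sequences. The 3 probes of KCNJ13 overlapped one another and are therefore not independent readings. The capitals mark the 15 bases that all 3 hold.
KCNJ13 probe A_04_P004173: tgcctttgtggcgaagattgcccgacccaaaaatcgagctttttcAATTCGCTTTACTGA
KCNJ13 probe A_04_P004172: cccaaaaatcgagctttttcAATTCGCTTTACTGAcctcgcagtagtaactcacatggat
KCNJ13 probe A_04_P004171: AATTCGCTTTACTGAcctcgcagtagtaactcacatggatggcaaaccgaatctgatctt

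The genes RYR2 and RYR3 code for closely related channels, and 1 probe of each covers a like stretch of both. The pair is shown because signal from one gene could reach the other's probe there. Capitals mark the 47 of 56 aligned bases that are identical (83.9%).
RYR2 probe A_04_P099908: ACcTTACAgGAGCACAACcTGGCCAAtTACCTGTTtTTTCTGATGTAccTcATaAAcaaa
RYR3 probe A_04_P100542: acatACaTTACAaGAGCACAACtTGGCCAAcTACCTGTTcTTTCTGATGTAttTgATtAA
The RYR3 probe of this pair was not well above background on all 3 arrays of any group and was not tested. Between all other pairs of RYR2 and RYR3 probes, the best ungapped alignment held 25 identical of 54 bases (46.3%), so the tested RYR3 probes did not share this stretch. The 2 tested RYR3 probes did not overlap, at 39130306 to 39130362 and 39130395 to 39130454 of the array's chromosome 17. RYR2 was also read by 2 probes at 27608736 to 27608795 and 27608839 to 27608898 of its chromosome 16. The array files name neither the genome build of these positions nor the exon or UTR. CACNA1C rested on 1 tested probe, shown so that its values can be traced to a sequence.
CACNA1C probe A_04_P016566: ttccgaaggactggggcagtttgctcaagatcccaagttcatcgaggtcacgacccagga

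On day 3 after the bleed the ryanodine receptors RYR3 and RYR2 fell. On that day 3 of 70 genes fell (RYR3, RYR2 and KCNJ13) and 2 rose (among them CLIC1), which is 4.29% and 2.86% of the members, beside 2.07% of all genes that fell and 4.88% that rose. At an unadjusted p below 0.05 there were 25 members (35.7%), beside 21.9% of all genes. On day 5, 0 members were called by limma, beside 1.92% of all genes that rose and 0.218% that fell, and 18 members (25.7%) had an unadjusted p below 0.05, beside 14.8% of all genes. On day 7, CACNB1 rose and 0 members fell, beside 1.96% and 0.585% of all genes, and 17 members (24.3%) had an unadjusted p below 0.05, beside 19.4% of all genes. Over the mean of the 3 days 6 members rose and 5 fell, 8.57% and 7.14%, beside 5.3% and 2.3% of all genes. All 3 day 3 arrays lay above all controls for 9 genes and below them for 14, which is 12.9% and 20.0% of the members, beside 13.7% and 11.4% of all genes. On day 5 this held for 6 and 10 genes (8.57% and 14.3%, beside 10.2% and 6.86%), and on day 7 for 9 and 9 (12.9% each, beside 12.3% and 11%). The median difference of the 70 genes was -0.16 on day 3, -0.093 on day 5, -0.038 on day 7 and -0.11 over the 3 days, against -0.0047, 0.025, 0.036 and 0.017 over all tested genes. Fewer cells of a type and less RNA per cell cannot be told apart in these whole-artery samples. Without control replicate 2, day 3 still had 3 falls but 1 rise, day 7 had 0 rises, and the mean of the days had 0 rises and 2 falls. Of these 2 falls, only that of RYR3 was among the 5 of the full fit, and that of KCNJ13 was new. The comparisons of the days share the 3 controls.

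**Figure D1:**
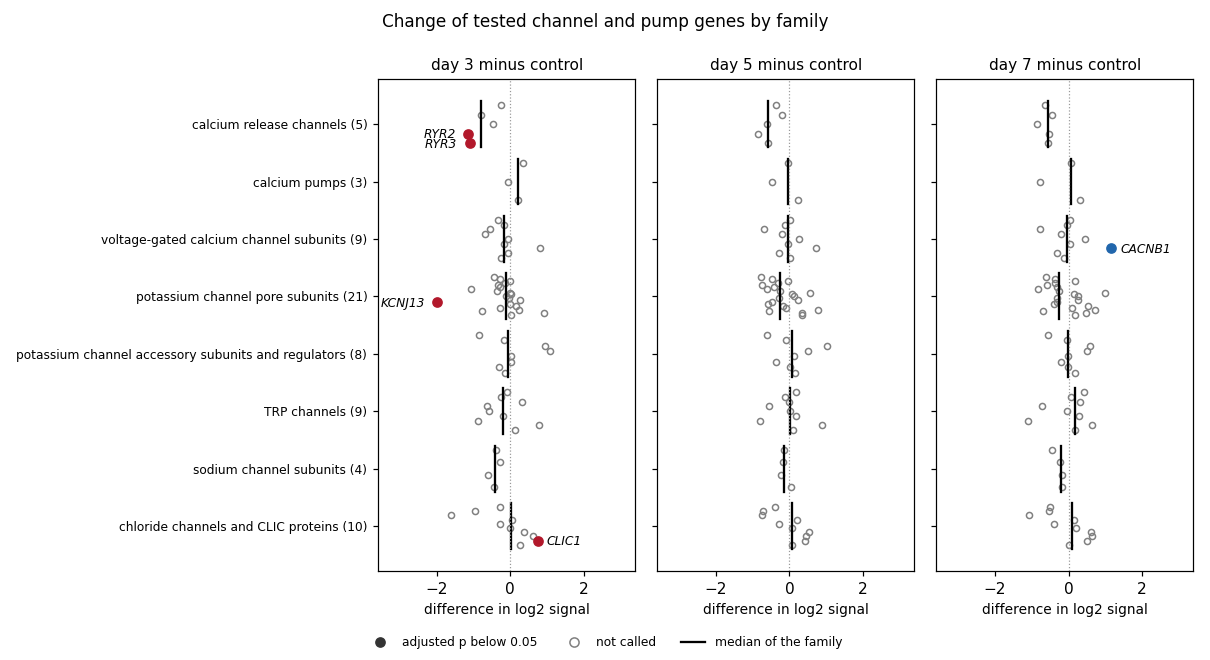
Difference from the controls (log2, horizontal axis) of all but 1 of the 70 tested genes on day 3, day 5 and day 7, by family with the number of genes drawn in brackets. Filled, named points passed the limma test at an adjusted p below 0.05, open points did not, and black bars are family medians. The calcium release channels have the lowest family median on each day, at -0.80, -0.59 and -0.56; on day 3 this is ITPR2, which was not above background then, and with ITPR2 at its bound the median is -0.49, still the lowest.

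RYR3, a ryanodine receptor of the internal calcium store, had levels of 2.37, 2.14 and 2.11 in controls, 1.03, 0.89 and 1.36 on day 3, 1.51, 1.5 and 1.84 on day 5 and 1.63, 1.73 and 1.57 on day 7. All 9 arrays after the bleed lay below all 3 controls, and the day 3 arrays lay lowest. On day 3 it averaged 1.1 ± 0.24, against 2.21 ± 0.14 in controls (SD, n = 3 each). It fell to 0.463 times the control level on day 3, a difference of -1.11 (SE 0.17, limma adjusted p = 0.00286). On slides 1, 2 and 3 it was -1.33, -1.25 and -0.75. On day 5 the difference was -0.59 (SE 0.17, limma adjusted p = 0.111) and on day 7 -0.56 (SE 0.17, limma adjusted p = 0.105), which did not pass the test. Its other tested probe gave -1.3 on day 3 (limma adjusted p = 0.00156). The fall over the mean of the 3 days was -0.75 (SE 0.14, limma adjusted p = 0.00808). Both RYR3 calls held under all 21 alternatives, at differences of -1.28 to -0.97 on day 3 and -0.88 to -0.67 over the 3 days. The largest limma adjusted p among these was 0.0144 on day 3 and 0.0498 over the 3 days, the latter just under the threshold.

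RYR2, the ryanodine receptor best known from heart muscle, had levels of 1.67, 1.96 and 1.7 in controls, 0.72, 0.62 and 0.54 on day 3, 0.37, 1.1 and 1.26 on day 5 and 1.18, 1.58 and 0.96 on day 7. By the probe that stood for the gene, here too no array after the bleed reached a control, although day 7 replicate 2 came close. On day 3 it averaged 0.63 ± 0.09, against 1.78 ± 0.16 in controls (SD, n = 3 each). It fell to 0.45 times the control level on day 3, a difference of -1.15 (SE 0.23, limma adjusted p = 0.015). By slide this was -0.95, -1.35 and -1.16. The other 2 tested probes, among them the one that resembles RYR3, gave -1.24 and -1.29 (limma adjusted p = 0.0177 and 0.0378). On the one that resembles RYR3, day 5 replicate 2 (-1.72) lay above control replicate 3 (-2.13). On the other, day 7 replicate 2 (0.83) lay above control replicates 1 and 3 (0.69 and 0.81). By the probe that stood for the gene, the differences of -0.87 (SE 0.23, limma adjusted p = 0.0969) on day 5 and -0.54 (SE 0.23, limma adjusted p = 0.261) on day 7 did not pass. The fall over the mean of the days was -0.85 (SE 0.19, limma adjusted p = 0.0233). The day 3 call was lost without day 3 replicate 3 (adjusted p = 0.0599), and that over the days without control replicate 1 or 2 (adjusted p = 0.0695 and 0.10), with no filter on dim probes (adjusted p = 0.0558) or with array weights (adjusted p = 0.0503).

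The 3 ITPR genes code for the receptors that release calcium when hormones and transmitters raise inositol trisphosphate. ITPR3 had levels of -0.03, -0.75 and -0.88 in controls, -1.01, -1.2 and -0.92 on day 3, -1.24, -0.96 and -1.29 on day 5 and -1.31, -1.58 and -1.37 on day 7. Control replicate 1 lay far above the other arrays, yet all 9 arrays after the bleed were below every control. It fell over the mean of the 3 days, with a difference of -0.65 (SE 0.17, limma adjusted p = 0.0472), and passed on no single day (-0.49, -0.60 and -0.86 on days 3, 5 and 7). That call held in only 1 of 12 leave-one-out fits, without control replicate 3, and was lost in the others at adjusted p of 0.0527 to 0.199. Without control replicate 1 the difference was -0.39, and with normexp, another background correction, -0.36 (adjusted p = 0.145). Quantile normalization, median scaling, the authors' value table and no filter on dim probes also lost the call (adjusted p = 0.0502, 0.0635, 0.0551 and 0.0971). ITPR1 had levels of -1.07, -0.91 and -1.85 in controls, -1.42, -1.55 and -1.6 on day 3, -1.35, -1.51 and -2.08 on day 5 and -1.82, -1.83 and -2.14 on day 7, and control replicate 3 lay among the arrays after the bleed. Its differences of -0.24, -0.37 and -0.65 did not pass, and its 5 tested probes gave -0.24 to 0.03 on day 3. ITPR2 had levels of -3.78, -3.44 and -3.5 in controls, -4.39, -4.03 and -4.69 on day 3, -3.68, -3.56 and -4.05 on day 5 and -4.6, -3.59 and -3.89 on day 7. It was near background, above it on 0 of 3 arrays on day 3 and on 2 of 3 controls. It was at least 1.21-fold lower on day 3, with an adjusted p of 0.099 by limma. This bound sets, on each day 3 array, the lowest signal well above background or the probe's own, whichever was higher, against the mean of the controls. Over the 5 release channels, 5 of 5 differences were negative on each day, by the probe that stood for each gene. Beside this, 3712, 3429 and 3366 of all 7354 tested genes had a negative difference on days 3, 5 and 7. The sum of the linear signals of the 5 genes, in units of the array's 75th percentile, was 8.47 to 9.87 units in controls, 4.22 to 4.93 units on day 3, 5.03 to 6.69 units on day 5 and 5.59 to 7.01 units on day 7. Most of this sum came from RYR3 and RYR2, the brightest of the 5, so it mainly restates their values.

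**Figure D2:**
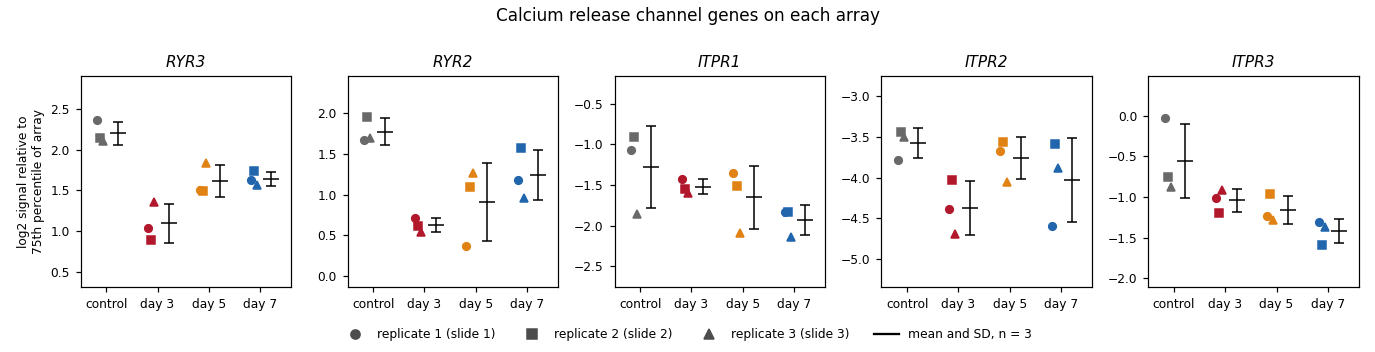
Level of the 5 calcium release channel genes on each array (vertical axis, log2 signal relative to the array's 75th percentile) in controls and on days 3, 5 and 7. Marker shapes are the 3 replicates, each on its own slide, and bars are mean and SD of 3 arrays. RYR3 lies between 0.89 and 1.36 on day 3, below its controls at 2.11 to 2.37, and control replicate 3 of ITPR1 lies among the arrays after the bleed.

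Genes of contractile smooth muscle had a lower summed signal on every array after the bleed, beside the lower ryanodine receptors. Of the 15 tested genes of that list 1 fell on day 3 and 0 rose, 6.67% and 0%, beside 2.07% and 4.88% of all genes. The gene that fell was MYL9, a myosin light chain, with a difference of -0.64 (SE 0.17, limma adjusted p = 0.0452). Over the mean of the days MYL9 and TAGLN fell, 13.3% of the list, beside 2.3% of all genes. On day 3, 13 differences were negative and 2 positive, and 6 had an unadjusted p below 0.05, all lower. The list median was -0.37 on days 3 and 5 and -0.58 on day 7. The summed linear signal of the list was 1172 to 1304 units in controls, 862 to 992 units on day 3, 848 to 1023 units on day 5 and 877 to 1139 units on day 7. In this sum the brightest genes weigh most. The part of this shift in the values of the release channels was not tested.

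No calcium pump passed the test on any day. ATP2A2, the SERCA pump of the internal store, had levels of 5.49, 4.93 and 5.39 in controls, 5.46, 5.51 and 5.9 on day 3, 5.34, 5.15 and 5.21 on day 5 and 5.34, 5.56 and 5.09 on day 7. The groups overlapped, and the difference on day 3 was 0.35 with a 95% half-width of 0.43 (limma adjusted p = 0.326). ATP2B1, a plasma membrane pump that moves calcium out of the cell, had levels of -0.26, -0.36 and -0.03 in controls, -0.24, 0.17 and 0.03 on day 3, 0.11, 0.06 and -0.15 on day 5 and 0.01, 0.28 and -0.0046 on day 7. All 3 arrays of day 7 lay above the controls, at a difference of 0.31 (SE 0.16, limma adjusted p = 0.351) that did not pass. ATP2A3, another SERCA gene, had levels of -1.99, -1.13 and -2.71 in controls, -2.31, -2.14 and -1.59 on day 3, -2.37, -2.32 and -2.55 on day 5 and -2.83, -2.62 and -2.7 on day 7. Its controls spread over more than a log2 unit, and the differences of -0.07, -0.47 and -0.77 on days 3, 5 and 7 did not pass. ATP2A1 and ATP2B3 were not tested, as they were not above background on all 3 arrays of any group.

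Among the voltage-gated calcium channel subunits, CACNB1 rose and CACNA1C fell. CACNA1C, the pore of the L-type channel through which calcium enters arterial muscle, had levels of 1.94, 1.69 and 1.07 in controls, 0.99, 0.92 and 1.12 on day 3, 0.70, 0.89 and 1.04 on day 5 and 0.80, 0.98 and 0.56 on day 7. Control replicate 3 lay close to the arrays after the bleed, and the day 3 arrays overlapped it. The differences of -0.56, -0.69 and -0.79 on days 3, 5 and 7 did not pass singly, with limma adjusted p of 0.156, 0.146 and 0.0837. Over the mean of the 3 days it fell, with a difference of -0.68 (SE 0.18, limma adjusted p = 0.0407). The call held in 3 of 12 leave-one-out fits (without control replicate 3, day 5 replicate 3 or day 7 replicate 2) and was lost in the other 9 at adjusted p of 0.0539 to 0.193, and also with normexp (adjusted p = 0.0582) and with no filter on dim probes (adjusted p = 0.0884).

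CACNB1, a beta subunit best known as part of the skeletal muscle channel, had levels of -1.14, -1.12 and -0.83 in controls, -0.11, -0.47 and -0.05 on day 3, -0.22, -0.64 and -0.07 on day 5 and -0.15, -0.08 and 0.61 on day 7. By the probe that stood for the gene, every array after the bleed lay above every control, and day 7 replicate 3 was highest. It rose to 2.23 times the control level on day 7, a difference of 1.16 (SE 0.23, limma adjusted p = 0.0263). By slide this was 0.99, 1.04 and 1.44. The differences on days 3 and 5 were 0.82 (SE 0.23, limma adjusted p = 0.059) and 0.72 (SE 0.23, limma adjusted p = 0.161). With the slide as a block, the day 3 difference also passed (adjusted p = 0.0176), and day 7 had an adjusted p of 0.00779. Over the mean of the days it rose by 0.90 (SE 0.19, limma adjusted p = 0.0176). The day 7 call was lost without control replicate 1 or 2 or day 7 replicate 2 or 3, at adjusted p of 0.0506 to 0.0927. The call over the days was lost without control replicate 1 (adjusted p = 0.0838) or 2 (adjusted p = 0.0727). The mean of all its probes lost both calls (adjusted p = 0.103 on day 7 and 0.0856 over the days), and no filter on dim probes lost that of day 7 (adjusted p = 0.070). Of its 5 probes, 4 covered the same bases shifted by 1 each, and the other 3 of these gave 0.85, 0.94 and 0.92 on day 7 without passing. On those that gave 0.94 and 0.92, day 5 replicate 2 lay below control replicate 3. The remaining probe, elsewhere in the gene, was dim, overlapped the controls and gave 0.49 (limma adjusted p = 0.542). Of the skeletal muscle list 10 genes had a probe and 5 were tested. Of these 5, 1 fell on day 3 (TNNC2, a troponin, difference -0.98 (SE 0.18, limma adjusted p = 0.00981)) and 0 rose. That is 20% and 0%, beside 2.07% and 4.88% of all genes.

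The other 7 voltage-gated calcium channel genes did not pass on any day. CACNA2D1, an alpha-2-delta subunit, had levels of 2.01, 2.12 and 1.77 in controls, 2.01, 2.0 and 1.41 on day 3, 2.19, 2.19 and 1.42 on day 5 and 2.08, 1.89 and 2.04 on day 7. CACNB3, a beta subunit of smooth muscle, had levels of 2.74, 2.82 and 3.31 in controls, 3.0, 2.67 and 2.47 on day 3, 3.11, 2.92 and 2.92 on day 5 and 2.87, 3.17 and 2.49 on day 7. CACNB2, another beta subunit, had levels of -0.22, -0.36 and -0.67 in controls, -0.57, -0.62 and -0.26 on day 3, -0.59, -0.43 and -1.06 on day 5 and -0.48, -0.63 and -1.08 on day 7. In each of these 3 genes the groups overlapped on every day. Over the 7 genes the differences spanned -0.69 (CACNA1D) to -0.064 (CACNB2) on day 3, -0.28 (CACNB2) to 0.25 (CACNA1E) on day 5 and -0.31 (CACNB2) to 0.45 (CACNA1E) on day 7.

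Of 21 tested potassium channel pore genes 1 fell on day 3 and 0 rose (4.76% and 0%, beside 2.07% and 4.88% of all genes). This was KCNJ13, the inward rectifier Kir7.1, known in mammals from the choroid plexus and the retinal pigment epithelium. Its levels were 0.34, -1.41 and 0.49 in controls, -2.69, -2.21 and -1.68 on day 3, -0.75, -0.70 and -0.54 on day 5 and -0.71, -0.67 and -0.17 on day 7. By the probe that stood for the gene, the day 3 arrays lay below all others. Control replicate 2 lay far below the other controls and below the arrays of days 5 and 7. On day 3 it averaged -2.19 ± 0.50, against -0.19 ± 1.05 in controls (SD, n = 3 each). It fell to 0.25 times the control level on day 3, a difference of -2.0 (SE 0.43, limma adjusted p = 0.0195). By slide this was -3.02, -0.80 and -2.18. Of the 2 probes that overlap it, A_04_P004173 gave -2.1 and A_04_P004172 -1.84 (limma adjusted p = 0.000969 and 0.0564). On A_04_P004172 control replicate 2 (-2.7) lay below day 3 replicate 3 (-2.47). On A_04_P004173 control replicate 2 (-0.78) lay among the arrays of days 5 and 7. A_04_P004173 also passed over the mean of the days, at -1.05 (limma adjusted p = 0.0159). By the probe that stood for the gene, the differences on days 5 and 7 were -0.47 (SE 0.43, limma adjusted p = 0.69) and -0.32 (SE 0.43, limma adjusted p = 0.734). Without control replicate 2 the day 3 difference was -2.61 (adjusted p = 0.000638), and with normexp it was -1.19 (adjusted p = 0.0186). The call was lost without control replicate 1 (adjusted p = 0.0728) or 3 (0.0521 as adjusted p), and without day 3 replicate 1 or 2 (adjusted p = 0.0634 and 0.0544).

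Several genes of the leptomeninges, which wrap the brain and its surface arteries, were low on the same day as KCNJ13. Of the list of fibroblast and leptomeningeal genes 9 had a probe, all 9 were tested, and 4 fell on day 3. These were PTGDS, which makes prostaglandin D2 (difference -1.59 (SE 0.24, limma adjusted p = 0.0029)), and CRABP2, which binds retinoic acid (difference -1.1 (SE 0.26, limma adjusted p = 0.0284)). The organic anion transporters SLC22A6 (difference -2.56 (SE 0.42, limma adjusted p = 0.00514)) and SLC22A8 (difference -3.24 (SE 0.66, limma adjusted p = 0.0149)) were the others. The collagens COL1A1 and COL3A1 and the proteoglycan LUM of the same list rose, by 1.56, 0.93 and 1.13, with limma adjusted p of 0.00254, 0.0329 and 0.0172. In SLC22A8 control replicate 2 was also the lowest control, with levels of -0.81, -0.42 and 1.05 on day 3, against 3.18, 2.08 and 4.27 in controls. Of the 9 differences on day 3, 5 were positive and 4 negative, and the list median was 0.31. On that day 44.4% of the list fell and 33.3% rose, beside 2.07% and 4.88% of all genes. The summed linear signal of the 9 genes, in which the brightest genes weigh most, was 893 to 985 on day 3, against 1238 to 2267 in controls. The part of this tissue in the value of KCNJ13 was not tested.

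The potassium channels best known from arterial muscle did not pass on any day. KCNMA1, the pore of the large-conductance calcium-activated channel, had levels of -0.68, -0.99 and -1.21 in controls, -1.25, -1.78 and -2.19 on day 3, -1.97, -1.04 and -1.55 on day 5 and -1.71, -1.3 and -1.96 on day 7. The arrays of days 3 and 7 lay below the controls, at differences of -0.78 (SE 0.29, limma adjusted p = 0.145) and -0.70 (SE 0.29, limma adjusted p = 0.244). KCNMB1, the subunit that tunes this channel to calcium sparks in smooth muscle, had levels of 2.04, 1.99 and 2.24 in controls, 1.75, 2.13 and 2.41 on day 3, 1.29, 1.43 and 2.42 on day 5 and 2.01, 1.58 and 2.03 on day 7. Its groups overlapped, and the day 3 difference was 0.01 with a 95% half-width of 0.62. KCNA5, a voltage-gated channel, had levels of -0.22, -0.79 and -1.25 in controls, -1.07, -1.21 and -1.01 on day 3, -1.4, -1.12 and -1.96 on day 5 and -1.2, -1.22 and -1.58 on day 7. KCNA2, of the same family, had levels of -0.15, 0.47 and 0.82 in controls, 0.13, 0.31 and 0.67 on day 3, 0.08, 0.47 and 0.43 on day 5 and 0.49, 0.74 and 0.42 on day 7. In both the groups overlapped on every day. KCNJ8, the pore of the ATP-sensitive channel of vascular muscle, had levels of -1.14, -1.61 and -1.6 in controls, -1.2, -1.67 and -1.53 on day 3, -1.85, -2.03 and -2.19 on day 5 and -1.85, -1.59 and -2.1 on day 7. The day 5 arrays of KCNJ8 lay below the controls (-0.57 (SE 0.20, limma adjusted p = 0.191)), and those of day 3 overlapped them (-0.02). KCNN4, an intermediate-conductance channel of endothelium and blood cells, was above background on 2 of 3 controls and had levels of -3.4, -4.52 and -3.55 in controls, -2.6, -2.97 and -3.19 on day 3, -3.49, -3.43 and -3.52 on day 5 and -2.56, -3.64 and -3.83 on day 7. The day 3 arrays lay above the controls without passing (0.90 (SE 0.35, limma adjusted p = 0.154)). KCNJ2 was not tested, as it was not above background on all 3 arrays of any group. No probe was named for KCNQ5.

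Over the 20 pore genes without a call, differences spanned -1.08 (KCNB2) to 0.90 (KCNN4) on day 3, -0.77 (KCNA1) to 0.77 (KCNK2) on day 5 and -0.82 (KCNB2) to 1.0 (KCND3) on day 7. The extreme of KCNB2 rested on 1 spot. Its brightest probe read -1.81, 0.20 and -1.96 in controls, -2.06, -2.18 and -2.56 on day 3, -1.84, -1.86 and -1.68 on day 5 and -2.25, -1.43 and -2.36 on day 7, with control replicate 2 far above every other array. The 4 probes shifted against it by 1 to 4 bases gave day 3 differences of 0.04, -0.14, 0.18 and -0.26. KCND3 likewise read 0.39, -4.14 and -4.43 on day 7, against -3.65, -3.7 and -3.84 in controls, with 1 high array. Of the 8 accessory and regulator genes 0 were called by limma on any day. At an unadjusted p below 0.05 there were 3, 1 and 0 on days 3, 5 and 7, beside 21.9%, 14.8% and 19.4% of all genes. Their differences on day 3 spanned -0.85 (KCNAB1) to 1.09 (KCNE4). KCNE4, which dampens voltage-gated potassium channels, was above background on all 3 arrays of day 3 and on 1 of 3 controls (limma adjusted p = 0.117).

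**Figure D3:**
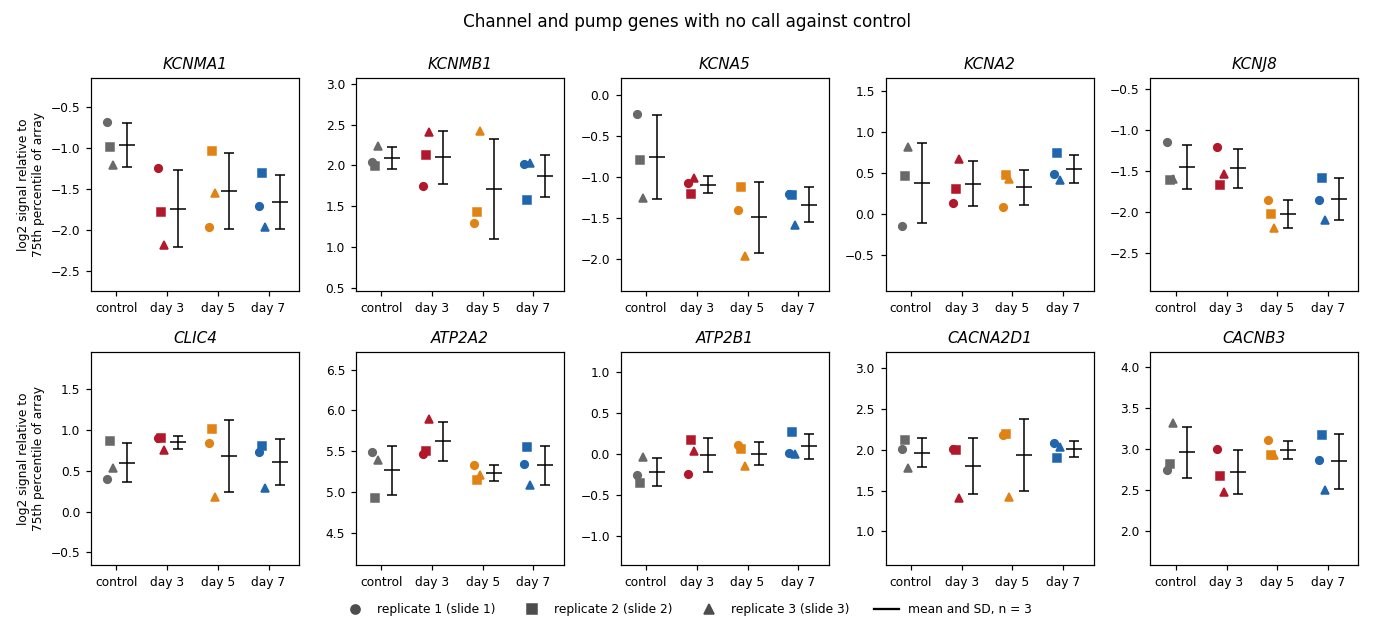
Level on each array (vertical axis, log2 signal relative to the array's 75th percentile) of 10 channel and pump genes that passed the test in no comparison with the controls. Marker shapes are the 3 replicates, each on its own slide, and bars are mean and SD of 3 arrays. The day 3 arrays of KCNMA1 lie between -2.19 and -1.25, below its controls at -1.21 to -0.68, while the groups of KCNMB1 and ATP2A2 overlap.

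Among the 9 TRP genes, TRPV2 rose and TRPC4AP fell over the mean of the 3 days. This was 11.1% each way, beside 5.3% of all genes that rose and 2.3% that fell. On a single day 0 were called by limma, with 2, 2 and 3 at an unadjusted p below 0.05 on days 3, 5 and 7. Of all genes 21.9%, 14.8% and 19.4% had such a p. TRPV2, a cation channel found in muscle and in macrophages, had levels of -2.05, -2.77 and -2.65 in controls, -1.86, -1.51 and -1.75 on day 3, -1.29, -1.82 and -1.73 on day 5 and -1.56, -2.18 and -1.78 on day 7. It was above background on 2 of 3 controls, and day 7 replicate 2 overlapped control replicate 1. It rose, with a difference of 0.77 (SE 0.19, limma adjusted p = 0.035) over the days, and the day 3 difference was 0.78 (SE 0.23, limma adjusted p = 0.0729). With slide blocks that difference passed (adjusted p = 0.0471). The call over the days was lost in 7 of 12 leave-one-out fits at adjusted p of 0.0518 to 0.149, and it held without control replicate 1, day 3 replicate 1, day 5 replicate 2 or 3, or day 7 replicate 2. It was also lost with normexp (difference 0.29, adjusted p = 0.289), no filter on dim probes (adjusted p = 0.0772) and array weights (adjusted p = 0.123).

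TRPC4AP, named for binding TRPC4, had levels of -2.36, -2.11 and -2.74 in controls, -2.98, -3.23 and -2.93 on day 3, -2.89, -3.19 and -2.82 on day 5 and -3.03, -3.08 and -3.3 on day 7. All 9 arrays after the bleed were below the controls. It fell, with a difference of -0.65 (SE 0.15, limma adjusted p = 0.0275) over the days, and the call was lost without control replicate 1 (adjusted p = 0.109) or 2 (adjusted p = 0.128). With normexp the difference was -0.09 (adjusted p = 0.80), and with no filter on dim probes the adjusted p was 0.0674. TRPC1 and TRPC6, channels that admit sodium and calcium after receptor activation, did not pass. TRPC1 had levels of -1.71, -1.63 and -1.86 in controls, -1.55, -1.68 and -2.2 on day 3, -1.35, -1.39 and -1.9 on day 5 and -1.35, -1.42 and -1.14 on day 7. TRPC6, which was above background on 1 of 3 arrays on day 3, had levels of -3.29, -4.92 and -3.14 in controls, -5.13, -4.37 and -3.56 on day 3, -3.76, -3.83 and -3.75 on day 5 and -3.27, -3.67 and -4.52 on day 7. Their groups overlapped on days 3 and 5, and the day 7 arrays of TRPC1 lay above its controls (0.43 (SE 0.20, limma adjusted p = 0.305)). No probe was named for TRPM4 or TRPV4.

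Sodium channels carry the rapid upstroke of the action potential in nerve and striated muscle. SCN3B, a beta subunit of sodium channels, had levels of -1.14, -1.17 and -1.16 in controls, -1.48, -1.36 and -1.49 on day 3, -1.34, -1.33 and -1.34 on day 5 and -1.51, -1.29 and -1.38 on day 7. All 9 arrays after the bleed lay below the controls. Its day 3 difference of -0.29 (SE 0.12, limma adjusted p = 0.195) did not pass.

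Of 10 chloride channel and CLIC genes 3 rose over the mean of the days and 0 fell (30% and 0%, beside 5.3% and 2.3% of all genes). CLIC1, a protein of the cytosol that can insert into membranes and is abundant in macrophages, had levels of 5.1, 5.29 and 5.78 in controls, 6.13, 6.15 and 6.1 on day 3, 5.91, 5.57 and 5.93 on day 5 and 5.87, 5.95 and 5.86 on day 7. The day 3 and day 7 arrays lay above the controls, and control replicate 3 was the highest control. It rose to 1.67 times the control level on day 3, a difference of 0.74 (SE 0.18, limma adjusted p = 0.0342). By slide this was 1.04, 0.86 and 0.32. Its 5 probes were shifted by 1 base each and all rose on day 3, so they are 1 reading. The differences on days 5 and 7 were 0.42 (SE 0.18, limma adjusted p = 0.317) and 0.50 (SE 0.18, limma adjusted p = 0.177). The day 3 call was lost without control replicate 1 or 2, without any day 3 replicate, and without day 7 replicate 1 or 2, at adjusted p of 0.0505 to 0.113. Quantile normalization, the authors' value table and no filter on dim probes also lost it (adjusted p = 0.0517, 0.0535 and 0.0862). The rise over the days, 0.55 (SE 0.15, limma adjusted p = 0.0457), held without control replicate 3 or day 5 replicate 2 and was lost in the other 10 fits at 0.0615 to 0.209 as adjusted p. It was also lost with normexp and these 3 settings, at adjusted p of 0.070 to 0.098.

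CLCN7, the chloride-proton exchanger of lysosomes, had levels of 3.72, 3.44 and 3.65 in controls, 3.93, 4.32 and 4.43 on day 3, 4.06, 4.0 and 4.14 on day 5 and 4.33, 4.48 and 3.92 on day 7. CLCN5, an exchanger of endosomes, had levels of -0.03, 0.01 and -0.20 in controls, 0.27, 0.07 and 0.54 on day 3, 0.62, 0.48 and 0.27 on day 5 and 0.53, 0.49 and 0.62 on day 7. By the probe that stood for each gene, all 9 arrays after the bleed lay above the controls. For CLCN5 this was by as little as 0.071 against 0.011 on slide 2 of day 3. Over the mean of the days CLCN7 rose by 0.58 (SE 0.15, limma adjusted p = 0.0414) and CLCN5 by 0.50 (SE 0.13, limma adjusted p = 0.0392). Each call was lost in 10 of 12 leave-one-out fits, for CLCN7 at adjusted p of 0.0562 to 0.156 and for CLCN5 at 0.0514 to 0.109 as adjusted p. The CLCN7 call held without day 3 replicate 1 or day 7 replicate 3, and the CLCN5 call without day 3 replicate 2 or day 5 replicate 3. CLCN7 also missed the threshold with the slide block, normexp, quantile normalization, the authors' value table, no filter on dim probes, array weights and the mean of all probes, at adjusted p of 0.0532 to 0.111. CLCN5 missed it with normexp (difference 0.32), no filter, array weights and the mean of all probes, at adjusted p of 0.0502 to 0.141. The other tested CLCN5 probe overlapped the controls and gave 0.29 over the days (limma adjusted p = 0.322). Of the 5 tested CLCN7 probes 1 passed over the days. The others gave 0.44 to 0.51, at limma adjusted p of 0.0736 to 0.127.

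Of 6 tested macrophage genes 4 passed on the higher side on each of days 3, 5 and 7. In the fit described, CLIC1 passed on day 3 and over the mean of the days, and CLCN7 and TRPV2 only over that mean. These 4, CD68, CD14, MRC1 and MSR1, rose on day 3 by 2.17, 1.44, 1.37 and 2.47 (limma adjusted p = 0.000126, 0.00291, 0.0209 and 0.00966). That is 66.7% of the list, beside 4.88% of all genes. Of the 6 differences, 5 were positive and 1 negative on days 3 and 5, the lowest being -0.087 and -0.13. On day 7 all 6 were positive. MSR1 was above background on 1 of 3 controls. The summed linear signal of the list was 6.17 to 9.95 units in controls, 19.3 to 23.3 units on day 3, 22.7 to 28.5 units on day 5 and 19.8 to 24.6 units on day 7. All 9 arrays after the bleed lay above the controls, and the days overlapped one another. Of 6 lymphocyte genes, CD79B rose on day 3, at least 1.75-fold higher (limma adjusted p = 0.00708), against controls of which 0 were well above background. Of the genes tested from the endothelial (5), neutrophil (4), neural and glial (3) and red blood cell (3) lists, 0 were called by limma on day 3. At an unadjusted p below 0.05 there were 1, 0, 1 and 0, beside 21.9% of all genes. The part of these cells in the values of the channel genes was not tested.

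The remaining chloride channel and CLIC genes did not pass. CLIC4 had levels of 0.39, 0.86 and 0.53 in controls, 0.90, 0.89 and 0.76 on day 3, 0.84, 1.01 and 0.18 on day 5 and 0.73, 0.80 and 0.29 on day 7. CLCN3, an endosomal exchanger studied in vascular muscle, had levels of -0.09, -0.27 and -0.17 in controls, -0.17, -0.08 and -0.29 on day 3, 0.05, 0.10 and -0.52 on day 5 and 0.19, -0.06 and -0.06 on day 7. The groups of CLIC4 overlapped on every day, and those of CLCN3 on days 3 and 5. The 7 genes without a call spanned -1.62 (ANO4) to 0.25 (CLIC4) on day 3. For ANO4 this again rested on 1 spot: it read -3.42, -4.12 and -4.06 on day 3, against -3.18, -0.07 and -3.47 in controls, while its other tested probe gave 0.01. No probe was named for ANO1.

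**Figure D4:**
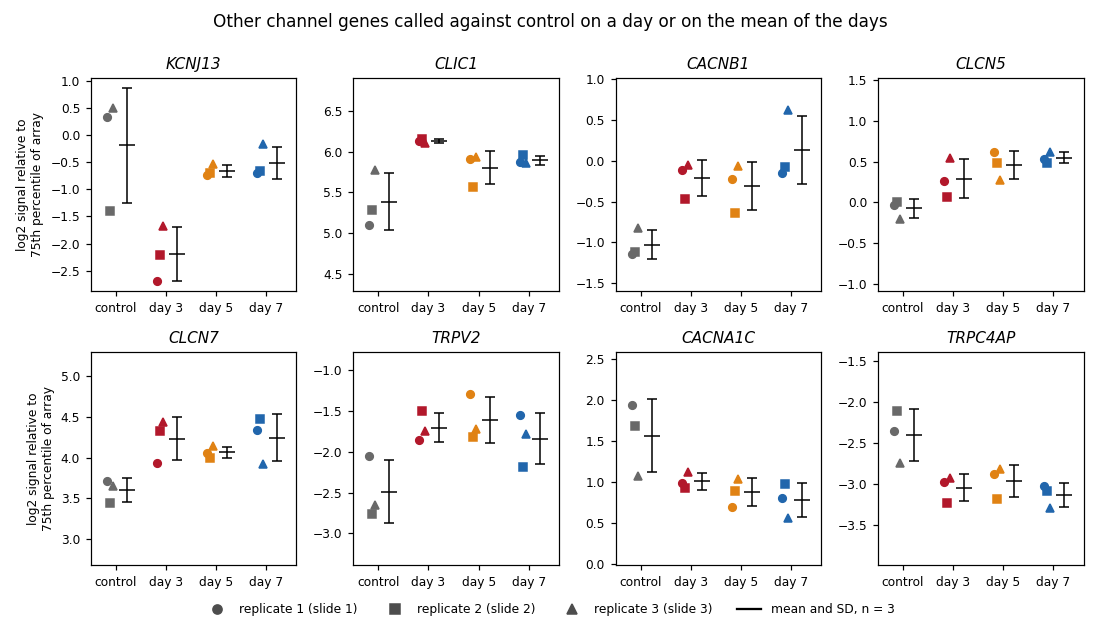
Level on each array (vertical axis, log2 signal relative to the array's 75th percentile) of 8 other genes called on a day or over the mean of the days. Marker shapes are the 3 replicates, each on its own slide, and bars are mean and SD of 3 arrays. KCNJ13 is lowest on day 3 (-2.69 to -1.68) with control replicate 2 at -1.41.

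Between the days 0 members were called by limma in any of the 3 comparisons, against 0% of all genes for day 5 minus day 3 and for day 7 minus day 5 and 0.109% for day 7 minus day 3. At an unadjusted p below 0.05 there were 7, 0 and 5 members in these comparisons, 10%, 0% and 7.14%, beside 7.55%, 1.77% and 11.8% of all genes. RYR3 was higher on days 5 and 7 than on day 3 by values of 0.52 (SE 0.17, limma adjusted p = 0.485) and 0.55 (SE 0.17, limma adjusted p = 0.276) that did not pass. KCNJ13 gave 1.53 (SE 0.43, limma adjusted p = 0.382) for day 5 minus day 3 and 1.68 (SE 0.43, limma adjusted p = 0.206) for day 7 minus day 3. Other readings passed. The KCNJ13 probe A_04_P004173 gave 1.67 for day 7 minus day 3 (limma adjusted p = 0.0467). With array weights KCNJ13 passed for days 5 and 7 minus day 3 (adjusted p = 0.013 and 0.0261), and so did RYR3 (adjusted p = 0.0331 and 0.0384). Without control replicate 2, which enters this comparison only through the estimate of the spread, the difference of KCNJ13 between days 7 and 3 passed (adjusted p = 0.040).

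Partners of the channels outside the symbol rule were read from 3 lists. Of 17 tested genes that buffer, carry or sense calcium, 0 were called by limma on day 3, day 5 or day 7. At an unadjusted p below 0.05 there were 6, 4 and 3, beside 21.9%, 14.8% and 19.4% of all genes. Over the mean of the days FKBP1B, which binds and steadies ryanodine receptors, passed on the higher side (limma adjusted p = 0.0419). JPH2, a junctophilin that holds the internal store close to the cell membrane, fell over that mean, with a difference of -0.71 (SE 0.18, limma adjusted p = 0.0372). That is 5.88% of the 17 each way, beside 5.3% of all genes that rose and 2.3% that fell. FKBP1B was well above background in 0 of 3 controls and was at least 1.11-fold higher on day 7 (limma adjusted p = 0.0752). It had levels of -3.38, -3.78 and -3.62 on day 3, against -5.5, -4.76 and -3.77 in controls. PLN, the inhibitor of SERCA pumps, and SLC8A1, the sodium-calcium exchanger, gave -0.45 (SE 0.18, limma adjusted p = 0.174) and -0.19 (SE 0.21, limma adjusted p = 0.675) on day 3.

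Of 5 subunits of the sodium-potassium pump, 2 fell on day 3, ATP1B2 among them, and 0 rose. That is 40% and 0%, beside 2.07% of all genes that fell and 4.88% that rose. ATP1B2, a beta subunit best known from glia and neurons, had levels of 0.73, 0.66 and 0.88 in controls, -0.60, -1.04 and -0.41 on day 3, 0.06, 0.28 and 0.41 on day 5 and -0.02, 0.16 and 0.26 on day 7, and fell, with a difference of -1.44 (SE 0.18, limma adjusted p = 0.00094) on day 3 and of -0.86 (SE 0.15, limma adjusted p = 0.00638) over the mean of the days. All 3 arrays of day 3 lay more than a log2 unit below every control. Of the neural and glial list 8 genes were on the array and 3 were tested. On day 3, 0 of these 3 were called by limma and 1 had an unadjusted p below 0.05, with differences of -1.23 to 0.38. The part of such tissue in the value of ATP1B2 was not tested. Of 11 channel regulators, 0 were called by limma on any day. At an unadjusted p below 0.05 there were 4, 0 and 1 on days 3, 5 and 7, beside 21.9%, 14.8% and 19.4% of all genes. ABCC9, the sulfonylurea receptor that pairs with KCNJ8, gave 0.64 (SE 0.22, limma adjusted p = 0.116) on day 3.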

How the data were processed

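Total RNA of 12 samples of rabbit basilar artery was labelled with Cy3 for single-colour arrays, per the labels' protocols. The authors deposited scanner output of Agilent Feature Extraction 9.5.1.1, per the submitters' processing notes. Its processed signal is an intensity that, per the file headers, was background-subtracted and detrended within each array without scaling between arrays. The deposited flags (unit: other) mark each spot as well above background, outlying or saturated with a 1, else a 0. The authors' value table, an intensity of the same arrays with unstated scale, had a median of 27.0 in every column and followed the scanner values at r of at least 0.994, which is that of a quantile-normalized linear table; it served as an alternative only.

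Here, only non-control spots were used, those flagged as outliers were made missing, and each deposited processed signal was divided by its array's 75th percentile and put on a log2 scale. The filter on dim probes is given above. Genes were named from the accessions, symbols and descriptions of the array files through a RefSeq table of assembly mOryCun1.1, whose coordinates were not used. This named 1 gene for 22492 probes, several for 200 and none for 20931. Each gene was represented by its brightest tested probe, by mean level. Levels, and whether the arrays of groups overlapped, are those of this probe unless another is named. Of the 70 member genes 31 had several tested probes, of which 18 shared a run of 30 or more bases.

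All 12 arrays entered 1 fit with limma 3.58.1 (two-sided; R 4.3.3), over 26434 probes, for 7 comparisons: each day and the mean of the days against the controls, and the days with each other. On data simulated with known changes for day 3, the test recovered 0% of changes of 0.5, 35.8% of changes of 1 and 83.3% of changes of 2 on the log2 scale, with 3 wrong calls among 26325 probes. A change of a log2 unit or less would thus mostly be missed with 3 arrays a group. Alternatives were normexp with an offset of 50, quantile and median scaling, the authors' table, 2 other filters on dim probes, array weights, the slide as a block, the mean of all probes, and leaving out each array.

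Members given with the value of every array were those called against the controls and a fixed list of vascular channels; others are given by range and count, and KCNB2, KCND3, KCNE4, SCN3B and ANO4 were singled out after their values were seen. The values of some genes of these lists are not reported here. The members, the lists of partner and marker genes and the rule for naming genes were chosen with earlier results of these data known. Residuals of arrays with the same replicate number correlated at -0.15 to 0.39, not above 0.1 for every pair. Those of arrays that differed in number and group correlated at -0.40 to 0.26. The numbers were taken as slides and not as paired animals, although such correlations cannot tell a shared slide from paired animals.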

Additional observations from a re-analysis of the deposited data

How the results depend on the processing

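No called difference changed sign under any alternative. Of 4515 values recomputed for single genes, 4353 stayed on their side of the threshold, 123 lost a call, and 39 gained one; 217 differences with no call in either fit changed sign. The RYR3 falls on day 3 and over the days held throughout. The count of day 3 rises was 1, against 2 in the fit described, with normexp, quantile normalization, the authors' value table, no filter on dim probes, or a filter on all 12 arrays, and 4 with the replicate block (slide), where CACNB1 and TRPV2 joined. With array weights day 3 had 6 falls, against 3; day 5 had 3 rises and 3 falls, against 0 and 0; day 7 had 2 rises and 4 falls, against 1 and 0; day 5 minus day 3 had 2 higher, and day 7 minus day 3 had 2 higher and 1 lower, against 0 each. These weights were 0.327 to 4.50, lowest for day 5 replicate 3, control replicate 3 (0.384) and control replicate 2 (0.461). Day 7 had 0 rises without a filter on dim probes or with the mean of all probes. Over the mean of the days, against 6 rises and 5 falls, there were 1 and 2 with normexp and 1 and 1 without a filter, and 3 rises each with array weights and with the mean of all probes. The cause of these shifts was not tested. The replicate block changed, beside the day 3 rises, only the call of CLCN7 over the days (adjusted p = 0.0532).

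Leaving out 1 array at a time gave 1 to 3 rises and 2 to 4 falls on day 3, 0 to 1 rises and 0 to 1 falls on day 5, 0 to 3 rises and 0 to 5 falls on day 7, and 0 to 4 rises and 1 to 7 falls over the mean of the days. Day 7 minus day 3 had 0 to 1 higher and 0 lower, and the other comparisons between days had 0 to 0. The 5 day 7 falls and 7 falls over the days came without control replicate 3, where ATP2A3, CACNA1C, ITPR1, ITPR3 and TRPC4AP passed on day 7. For 2 members a group had no array well above background, so signal over background leaves only a bound there. All array values measure RNA of the whole artery, and 3 arrays a group leave changes of a log2 unit or less largely unresolved.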

Other observations

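A TRPC1 probe showed the same kind of reading as KCNB2 and ANO4, high on control replicate 2 alone. It read -2.66, 3.11 and -2.09 in controls, -2.41, -2.28 and -3.28 on day 3, -1.99, -2.1 and -2.5 on day 5 and -2.07, -2.16 and -1.62 on day 7. Its 3 other probes gave differences of -0.37, -0.14 and -0.08 on day 3, against -2.11 for this one, and it was not the probe that stood for the gene above. None of the 3 spots carried an outlier flag, so each entered the fit. The 3 probes were chosen after their values were seen.

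KCNK2, a potassium channel opened by stretch and by fatty acids, had levels of 4.12, 3.56 and 4.28 in controls, 4.45, 4.37 and 3.81 on day 3, 4.54, 5.03 and 4.71 on day 5 and 4.39, 4.83 and 4.86 on day 7. The arrays of days 5 and 7 lay above all controls, at differences of 0.77 (SE 0.24, limma adjusted p = 0.152) and 0.71 (SE 0.24, limma adjusted p = 0.158) that did not pass, and the day 3 arrays overlapped the controls. It was chosen after its values were seen.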
